A study of Homo sapiens with 6 samples.

Results

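Transcript levels of 39 genes of glycolysis and the hypoxia response were compared between CAL62 cells given 50 nM erianin and CAL62 cells given the DMSO vehicle. The genes were taken by symbol from a listed set, and all 39 had a row among the 39168 Ensembl identifiers of the count table and were among the 12821 genes tested. They were grouped by role as 4 glucose and lactate transporters, 17 enzymes from hexokinase to lactate dehydrogenase, 3 regulators of flux, 4 genes of the HIF system and 11 hypoxia-induced effectors. CAL62 is a human anaplastic thyroid carcinoma (ATC) line, labelled as wild type, and was the 1 line sequenced. Both groups were grown in RPMI medium with serum, were collected after 48 h, and had 3 libraries each of total RNA sequenced on the BGISEQ-500 platform. Erianin is a bibenzyl compound first isolated from Dendrobium orchids. The design text speaks of replicate experiments without saying whether the cultures were separate, so each p-value measures the spread between these libraries, which may be technical.

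Glycolysis converts glucose to pyruvate in the cytosol, and lactate dehydrogenase then reduces pyruvate to lactate, which leaves the cell through monocarboxylate transporters. Tumour cells often run this route at a high rate even with oxygen present. When oxygen is scarce, the EGLN prolyl hydroxylases lose activity, the alpha subunits HIF1A and EPAS1 escape degradation by the VHL ligase, and with their partner ARNT they bind a short core motif near glucose transporters, glycolytic enzymes and a broad set of effectors. HIF activity is set mainly by the stability of the alpha proteins, which read counts do not measure.

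Reads on named genes ranged from 25776301 to 34107727 per library. Levels are given within a gene as CPM, the count scaled to library size with TMM factors, and as TPM, which is also scaled by gene length, where genes are compared with each other. DMSO replicate 3 stood apart from the other libraries. In log2 CPM of the tested genes, it lay at distances of 64.1 and 62.9 from DMSO replicates 1 and 2. Those replicates lay at 37.2 from each other and at 58.5 to 62.3 from the erianin libraries. They were thus nearer to the erianin libraries than to DMSO replicate 3. Adjusted p from fits without DMSO replicate 3 measure the spread of the remaining libraries only. The biological coefficient of variation estimated by edgeR, which is the relative spread between libraries of a group, was 0.139 with all 6 libraries, 0.0421 without DMSO replicate 3 and between 0.137 and 0.159 when any other library was left out. Of 7 thyroid markers, TSHR and NKX2-1 were at 0 in every library, and nearly all of the summed level (644 to 742 CPM with DMSO, 421 to 435 CPM with erianin) came from PAX8. The summed level of 4 leukocyte markers was 0.321 to 0.687 CPM and that of 3 endothelial markers 0.225 to 0.771 CPM over all libraries. The summed level of 3 mesenchymal markers was 6474 to 8389 CPM with DMSO and 4073 to 4620 CPM with erianin. Most of it came from FN1, at 5272 to 6814 CPM with DMSO and 3112 to 3617 CPM with erianin. The sum of 5 epithelial markers was 2312 to 3131 CPM with DMSO and 2520 to 2689 CPM with erianin. Nearly all of it came from KRT8, KRT18 and KRT19, with EPCAM at 17.7 to 23.3 CPM and CDH1 at 0 to 0.258 CPM over all libraries. The part of these shifts in the results was not tested. In these bulk samples, fewer cells of a kind and less RNA per cell cannot be told apart.

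Erianin raised 8 of the 39 genes and lowered none by the rule for differentially expressed genes (DEGs), which was an adjusted p under 0.05 in edgeR's quasi-likelihood test with a log2 fold change beyond 0.5 in either direction. The 8 were ADM, SLC2A3, ANGPTL4, CA9, HK2, SLC2A1, KDM3A and ALDOA, or 20.5% of the set, where 5.37% of all genes tested were called higher and 3.36% lower. With the adjusted p alone, 11 genes rose, PFKFB3, NDRG1 and LDHA being added, and PFKP fell, where 7.22% of all genes were higher and 7.69% lower. Over the 39 genes the log2 fold change had a median of 0.29, and over all genes tested 0.001. Because the genes were chosen with earlier results of these data known, these shares and medians describe the set and do not test it. All 3 erianin libraries lay above all 3 DMSO libraries for 23 of the 39 genes (59.0%) and below them for PFKP, GAPDH and PKM, where 19.5% of all genes tested lay above, 19.3% below and 38.7% either way. ALDOC and EGLN3 passed the low-count filter through their erianin libraries, so their place among the tested genes is not independent of the comparison. Without DMSO replicate 3, 10 of the 39 genes were called higher and 1 lower, where 11.4% of all genes were called higher and 6.11% lower. That set kept 7 of the 8 genes, without ALDOA, and added ANKRD37, EGLN3 and HIF1A as higher and SLC16A3 as lower. An offset for GC content left 8 called higher (5.16% of all genes) and 0 lower (5.26%), with EGLN3 in place of KDM3A, and limma on log2(TPM + 1) called 13 higher (9.41%) and 0 lower (0.805%), the 8 among them.

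**Figure D1:**
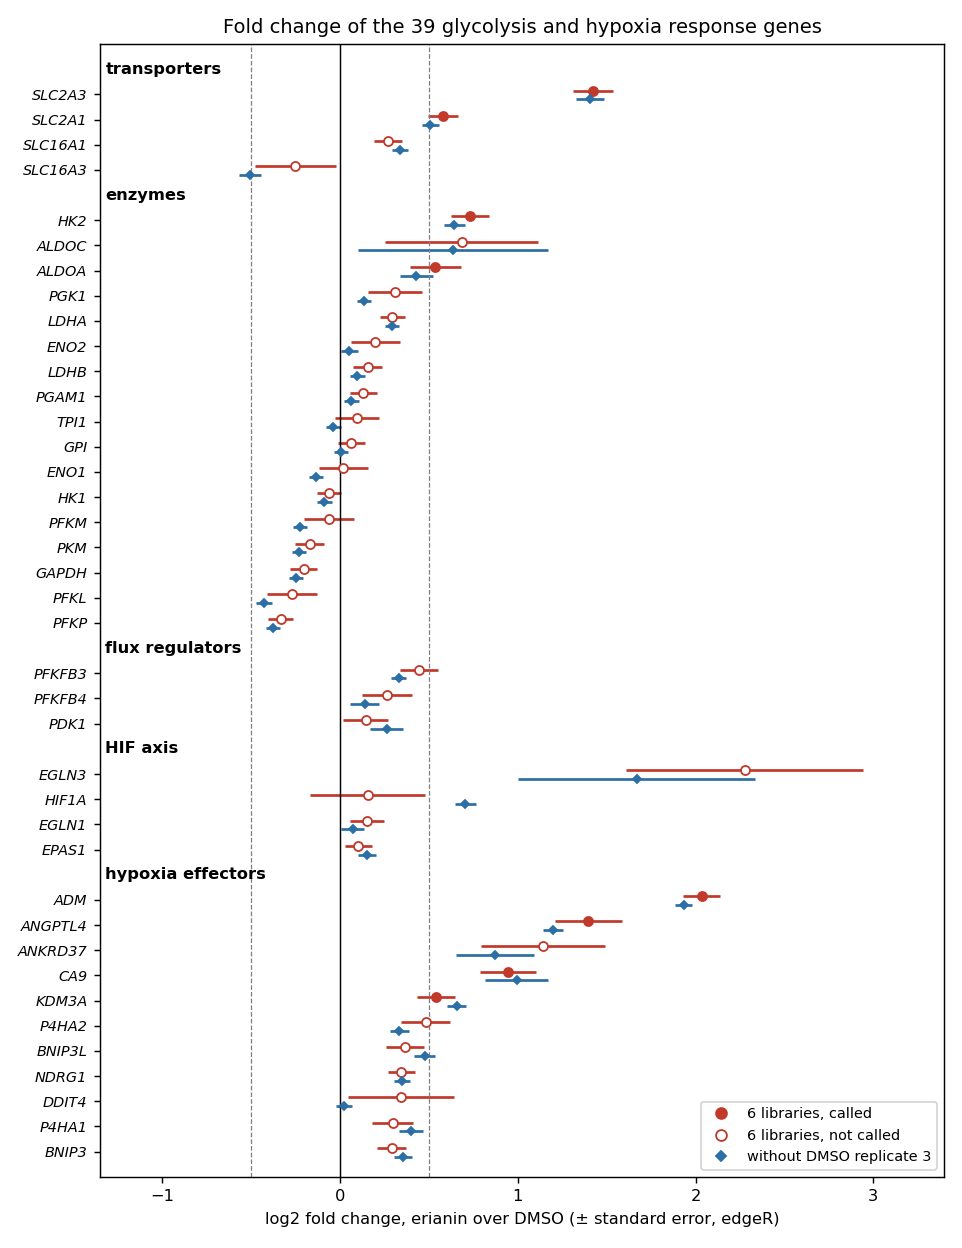
Log2 fold change of erianin over DMSO for each of the 39 genes by role, with its standard error from edgeR, in the fit with 6 libraries (circles, filled where called) and without DMSO replicate 3 (diamonds). Dashed lines mark an absolute log2 fold change of 0.5. All 8 called genes lie to the right, HIF1A moves from 0.15 to 0.70 and DDIT4 from 0.34 to 0.02 once DMSO replicate 3 is left out.

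To show the sequence that HIF is known to recognise beside the genes that rose, the 250 bases before each RefSeq start (GRCh38.p14) were searched for ACGTG and GCGTG on both strands, so that CACGTG counts as a match on each strand. Windows were listed for 35 of the 39 genes, and 38 of their 63 windows (60.3%) held either motif, compared with 43.2% of all 35116 windows in the RefSeq table. ACGTG alone was in 24 of the 63 windows (38.1%) and in 18.5% of all windows. The genes were listed for glycolysis and the hypoxia response, and some have several windows. These shares therefore describe the list and not the response to erianin. A match describes these letters in this window and is not a shown binding site. Either motif was in a window of 29 of the 35 genes, among them genes that were not called. In the window nearest the gene's GENCODE start, BNIP3 had 6 matches and ALDOC and LDHA had 5 each, and none of them was called. The stretches below, from that window, surround the matches of the called genes and of LDHA. Each runs 5′ to 3′ on the gene's strand with matches in capitals.
HK2, chr2:74833888-74833912, match outside annotated exons of this strand: ccacggaccaCACGTcccatctcag
HK2, chr2:74834064-74834091, in an annotated HK2 UTR: gccaatggGCGTGcgCACGTcactgatc
ALDOA, chr16:30064091-30064115, in an annotated UTR of AC093512.2: ttcccctccaCACGTcaacgattct
LDHA, chr11:18394368-18394393, match outside annotated exons of this strand, with the end of the stretch inside an LDHA exon: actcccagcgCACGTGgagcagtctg
LDHA, chr11:18394471-18394499, in an annotated LDHA UTR: actcaCACGTGggttcccgCACGTccgcc
CA9, chr9:35673900-35673924, in an annotated CA9 UTR: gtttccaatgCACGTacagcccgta
ADM, chr11:10304962-10304986, in an annotated ADM UTR: gcaggagcgcGCGTGgctgaggaaa
KDM3A, chr2:86441335-86441359, in an annotated KDM3A UTR: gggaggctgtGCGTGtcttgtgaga
ANGPTL4, chr19:8363911-8363935, match outside annotated exons of this strand, though other ANGPTL4 transcripts start upstream of it: aaagaagagtCACGTctcccacggt
The annotated UTRs belong to GENCODE release 29 transcripts that start upstream of the RefSeq start. The SLC2A1 window (chr1:42958869-42959118, minus strand) held neither motif, and SLC2A3 is named only. ANGPTL4 is the called gene whose match lay farthest from its start, 234 bases before it, and the 246 bases of its window that hold no annotated exon of this strand read, 5′ to 3′:
ANGPTL4, chr19:8363905-8364150: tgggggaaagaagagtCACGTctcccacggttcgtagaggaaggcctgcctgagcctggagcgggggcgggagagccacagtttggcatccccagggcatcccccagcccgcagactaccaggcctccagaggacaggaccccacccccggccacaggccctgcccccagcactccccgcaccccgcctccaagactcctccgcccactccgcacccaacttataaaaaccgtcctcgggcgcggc

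Both glucose transporters rose with erianin. SLC2A3 (chr12:7919230-7936275, minus strand) encodes GLUT3, a transporter with high affinity for glucose, and was at 28.9, 27.2 and 27.0 CPM in DMSO replicates 1, 2 and 3 and at 65.6, 85.1 and 72.4 CPM in erianin replicates 1, 2 and 3. The DMSO libraries were close to each other, and each erianin library was far above them. The log2 fold change was 1.42 (SE 0.11, adjusted p = 0.00102, edgeR), and the gene was called whichever library was left out. SLC2A14, a close paralog on the same chromosome that could share reads with SLC2A3, was at 0.257 to 0.555 CPM with DMSO and 1.20 to 1.38 CPM with erianin (adjusted p = 0.0209, edgeR). SLC2A1 (chr1:42925375-42959176, minus strand) encodes GLUT1, the basal glucose transporter of many cells. It was at 102, 96.2 and 85.3 CPM with DMSO and at 138, 147 and 138 CPM with erianin, with no overlap. Its log2 fold change was 0.58 (SE 0.09, adjusted p = 0.00734, edgeR), and leaving out any 1 erianin library took the adjusted p to between 0.0520 and 0.0565.

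The 2 monocarboxylate transporters, which carry lactate and pyruvate, were not called. SLC16A1, which encodes MCT1, was at 103, 98.5 and 115 CPM with DMSO and at 129, 127 and 126 CPM with erianin, without overlap (log2 fold change 0.27, SE 0.08, adjusted p = 0.0596, edgeR). SLC16A3, which encodes MCT4, the exporter of highly glycolytic cells, was at 55.7, 60.3 and 30.7 CPM with DMSO and at 39.4, 41.3 and 42.4 CPM with erianin. DMSO replicate 3 lay below the erianin libraries and the other two DMSO libraries lay above them. The SLC16A3 log2 fold change was -0.25 (adjusted p = 0.506, edgeR) with all libraries and -0.51 (adjusted p = 1.75e-08, edgeR) without DMSO replicate 3, where the gene was called lower. With an offset for GC content and DMSO replicate 3 left out, it was -0.40 (adjusted p = 4.88e-07, edgeR) and SLC16A3 was not called.

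**Figure D2:**
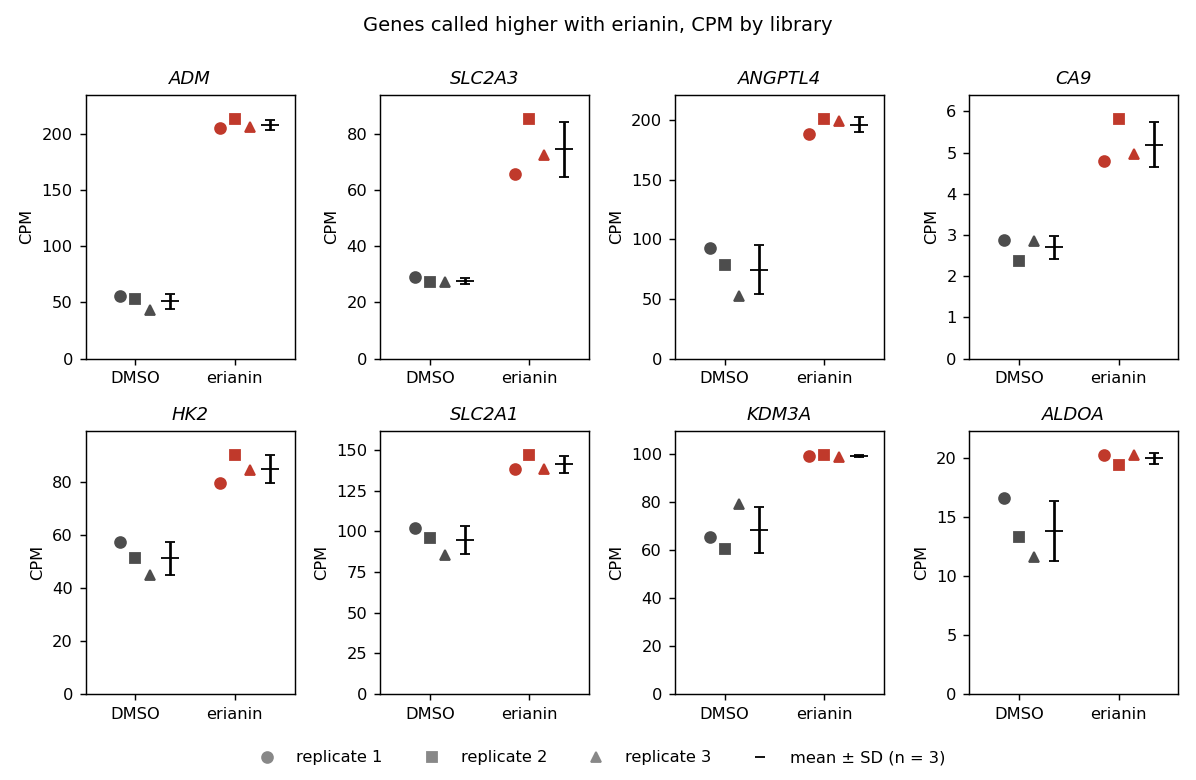
CPM of the 8 genes called higher, by library, with the mean and SD of the 3 libraries of each group (vertical axes start at 0). In every panel the 3 erianin libraries lie above the 3 DMSO libraries, with ADM at 205 to 213 CPM against 43.6 to 56.0 CPM.

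Among the 17 enzymes, HK2 and ALDOA rose by the DEG rule, where 5.37% of all genes tested were called higher. The median log2 fold change of the 17 was 0.09, and without DMSO replicate 3 it was 0.007 with HK2 alone called. HK2 (chr2:74833981-74893359, plus strand) encodes hexokinase 2, an inducible isozyme that phosphorylates glucose on entry and can dock on mitochondria. It was at 57.3, 51.2 and 44.9 CPM with DMSO and at 79.7, 90.3 and 84.4 CPM with erianin, well apart. The HK2 log2 fold change was 0.73 (SE 0.11, adjusted p = 0.00709, edgeR), and the adjusted p was 0.0526 without erianin replicate 2 and 0.0517 without erianin replicate 3. HK1, the constitutive isozyme, was at 760, 714 and 704 CPM with DMSO and at 719, 686 and 681 CPM with erianin. The HK1 groups overlapped (log2 fold change -0.06, SE 0.07, adjusted p = 0.582, edgeR).

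ALDOA (chr16:30064164-30070457, plus strand), the muscle-type aldolase, was at 16.6, 13.3 and 11.6 CPM with DMSO and at 20.3, 19.5 and 20.3 CPM with erianin, again without overlap. Its log2 fold change was 0.54 (SE 0.14, adjusted p = 0.0428, edgeR), and its call was lost in 5 of the 6 fits that left out 1 library. It was lost on the adjusted p (0.119 to 0.159) without DMSO replicate 2 or any erianin library, and on the fold change (0.43) without DMSO replicate 3. The ALDOA level is uncertain. Its mean of 3.56 TPM with DMSO was far below the 803 TPM of TPI1 and 3007 TPM of GAPDH, the enzymes of the next steps. The protein-coding AC093512.2 (chr16:30053090-30070420, plus strand), whose span overlaps that of ALDOA, was listed at 0 in every library. How reads in the shared span were assigned is not given in the sources used here. ALDOC, the brain-type aldolase, held 4, 14 and 9 reads with DMSO and 17, 12 and 22 with erianin (adjusted p = 0.325, edgeR).

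PFKP moved the other way. It encodes the platelet-type subunit of phosphofructokinase, the rate-controlling enzyme of the pathway, and was at 615, 601 and 555 CPM with DMSO and at 475, 457 and 475 CPM with erianin, with every erianin library lower. The log2 fold change was -0.33 (SE 0.07, adjusted p = 0.0213, edgeR), short of the fold-change threshold, and its adjusted p was 0.0690 to 0.114 when any library other than DMSO replicate 3 was left out. The muscle-type PFKM was at 240, 234 and 164 CPM with DMSO and at 208, 199 and 203 CPM with erianin. The liver-type PFKL was at 179, 174 and 123 CPM with DMSO and at 133, 129 and 133 CPM with erianin. In both, DMSO replicate 3 lay below all 3 erianin libraries and DMSO replicates 1 and 2 lay above them. Without DMSO replicate 3 the log2 fold changes were -0.23 for PFKM (adjusted p = 2.47e-05, edgeR) and -0.43 for PFKL (adjusted p = 4.14e-10, edgeR), both short of the DEG threshold.

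LDHA, the muscle-type lactate dehydrogenase subunit, was at 921, 839 and 881 CPM with DMSO and at 1083, 1088 and 1070 CPM with erianin. The erianin libraries were tight and all higher (log2 fold change 0.30, SE 0.07, adjusted p = 0.0288, edgeR), and the adjusted p was 0.0595 to 0.143 when any library other than DMSO replicate 3 was left out. With an offset for GC content the LDHA log2 fold change was 0.18 (adjusted p = 0.139, edgeR). GAPDH, which oxidises glyceraldehyde 3-phosphate and is often used as a reference gene, had the highest mean TPM of the 39. It was at 7386, 7111 and 6710 CPM with DMSO and at 6186, 6085 and 6120 CPM with erianin, so that all erianin libraries were lower (log2 fold change -0.21, SE 0.07, adjusted p = 0.104, edgeR). PKM, the pyruvate kinase, also lay lower in every erianin library, at 2157 to 2242 CPM against 2279 to 2664 CPM (log2 fold change -0.17, adjusted p = 0.196, edgeR). In limma on log2(TPM + 1), where the median of all genes was 0.18, the log2 fold change was -0.01 for GAPDH and 0.03 for PKM. PGK1, PGAM1 and LDHB lay higher in every erianin library with log2 fold changes of 0.31, 0.13 and 0.16 (adjusted p 0.215 to 0.293, edgeR), and with 0.13, 0.06 and 0.10 when DMSO replicate 3 was left out. GPI, TPI1, ENO1 and ENO2 overlapped between the groups in CPM, with log2 fold changes of 0.02 to 0.20. Summed over the 17 enzymes, the level was 17606 CPM ± 1505 (SD, n = 3) with DMSO and 16851 CPM ± 218 with erianin. DMSO replicate 3 gave 15962 CPM, below the 16641 to 17077 CPM of the erianin libraries, and DMSO replicates 1 and 2 gave 18917 and 17938 CPM, above them. The lower mean sum with erianin rested on GAPDH. Without GAPDH, the other 16 enzymes summed to 10537 CPM ± 1166.5 (SD, n = 3) with DMSO and 10721 CPM ± 168 with erianin, and the groups overlapped.

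**Figure D3:**
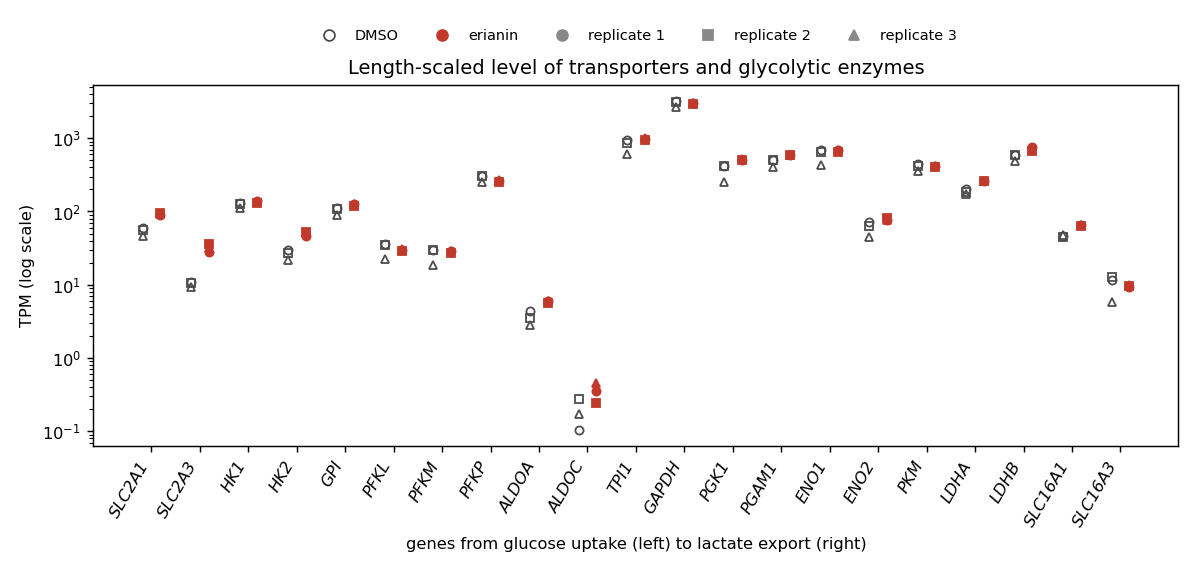
TPM (log axis) of the 4 transporters and 17 enzymes in each library, ordered from glucose uptake to lactate export, with open symbols for DMSO, filled symbols for erianin and a shape for each replicate. Levels span from below 0.5 TPM for ALDOC to 3007 TPM on average for GAPDH with DMSO. In TPM the groups were separate for SLC2A1, SLC2A3, HK2, GPI, ALDOA, TPI1, PGK1, PGAM1, ENO2, LDHA, LDHB and SLC16A1. Of these, GPI, TPI1 and ENO2 overlapped in CPM, while PFKP, GAPDH and PKM overlapped here but not in CPM. The deposited TPM columns sum to 59.1% to 73.5% of the nominal total with DMSO and 75.1% to 78.3% with erianin, so the groups differ in scale.

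The 3 regulators of flux were not called. PFKFB3, a kinase that makes fructose 2,6-bisphosphate and so activates phosphofructokinase, was at 148, 144 and 113 CPM with DMSO and at 185, 186 and 181 CPM with erianin. All erianin libraries were higher, and the log2 fold change of 0.45 (SE 0.11, adjusted p = 0.0318, edgeR) passed the adjusted p but not the fold-change threshold. The adjusted p was 0.0511 to 0.132 when any library other than DMSO replicate 3 was left out. The related PFKFB4 was at 23.4, 20.1 and 16.2 CPM with DMSO and at 24.2, 23.5 and 24.0 CPM with erianin, a narrow gap (log2 fold change 0.27, adjusted p = 0.244, edgeR). PDK1, which shuts pyruvate out of the mitochondrial citrate cycle by inhibiting pyruvate dehydrogenase, overlapped at 13.3 to 17.3 CPM against 15.8 to 17.1 CPM.

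None of the 4 genes of the HIF system was called with all libraries. HIF1A, the alpha subunit named for the system, was at 56.5, 51.0 and 129 CPM with DMSO and at 93.8, 85.4 and 83.7 CPM with erianin. DMSO replicate 3 held 2.39 times the mean of the other two DMSO libraries and lay above every erianin library. The log2 fold change was 0.15 (SE 0.33, adjusted p = 0.798, edgeR) with all libraries and 0.70 (SE 0.06, adjusted p = 6.98e-12, edgeR) without DMSO replicate 3. With an offset for GC content and DMSO replicate 3 left out, the HIF1A log2 fold change was 0.36 (adjusted p = 3.60e-06, edgeR), short of the fold-change threshold. EPAS1, which encodes HIF-2 alpha and had the highest mean TPM of the 4, was at 80.2, 79.4 and 88.5 CPM with DMSO and at 87.0, 92.3 and 87.1 CPM with erianin, an overlap (log2 fold change 0.10, adjusted p = 0.415, edgeR). EGLN1, the main oxygen-sensing prolyl hydroxylase, lay at 32.1 to 38.0 CPM with DMSO and 38.6 to 40.8 CPM with erianin (log2 fold change 0.15, adjusted p = 0.338, edgeR). EGLN3, a hydroxylase that HIF itself induces, held 4, 3 and 0 reads with DMSO and 12, 14 and 16 with erianin. Its log2 fold change of 2.28 (SE 0.66, adjusted p = 0.0589, edgeR) rested on these few reads.

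The 11 hypoxia-induced effectors all had positive fold changes, with a median of 0.48 (log2), and 10 of them had every erianin library above every DMSO library, as did 19.5% of all genes tested. ADM (chr11:10304680-10307397, plus strand) encodes adrenomedullin, a secreted vasodilator peptide. It was at 56.0, 52.8 and 43.6 CPM with DMSO and at 205, 213 and 206 CPM with erianin. Every erianin library was more than 3 times any DMSO library, and the log2 fold change of 2.03 (SE 0.10, adjusted p = 0.000212, edgeR) was the largest of the 8 called genes. ANGPTL4 (chr19:8363289-8374373, plus strand) encodes a secreted inhibitor of lipoprotein lipase and was at 93.0, 78.3 and 52.6 CPM with DMSO and at 189, 201 and 200 CPM with erianin. The DMSO libraries spread widely and were still all lower (log2 fold change 1.40, SE 0.19, adjusted p = 0.00535, edgeR). ADM and ANGPTL4 were called whichever library was left out, with adjusted p of at most 0.00600 and 0.0415.

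CA9 (chr9:35673856-35681159, plus strand) encodes carbonic anhydrase IX, a cell-surface enzyme that regulates pH. It was low, at 2.87, 2.37 and 2.86 CPM with DMSO and 4.80, 5.81 and 4.97 CPM with erianin, without overlap. The CA9 log2 fold change was 0.95 (SE 0.16, adjusted p = 0.0103, edgeR), and the adjusted p was 0.0528 to 0.0628 when 1 erianin library was left out. ARHGEF39, a protein-coding gene on the opposite strand whose span overlaps that of CA9, was at 6.97 to 8.66 CPM with DMSO and 5.91 to 6.94 CPM with erianin (log2 fold change -0.24, adjusted p = 0.272, edgeR). KDM3A (chr2:86440647-86492716, plus strand) encodes a histone H3 lysine 9 demethylase. It was at 65.2, 60.5 and 78.9 CPM with DMSO and at 99.1, 99.6 and 98.8 CPM with erianin, whose libraries were nearly equal and all higher. Its log2 fold change was 0.54 (SE 0.11, adjusted p = 0.0172, edgeR), and the adjusted p was 0.0540 to 0.0874 when any library other than DMSO replicate 3 was left out. With an offset for GC content the KDM3A log2 fold change was 0.41 (adjusted p = 0.00568, edgeR), short of the fold-change threshold.

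NDRG1, a stress-induced gene linked to differentiation, had the highest mean TPM of the effectors. It was at 1264, 1105 and 1211 CPM with DMSO and at 1481, 1552 and 1513 CPM with erianin, without overlap. The log2 fold change was 0.34 (SE 0.08, adjusted p = 0.0250, edgeR), short of the fold-change threshold, and the adjusted p was 0.0501 to 0.122 when any library other than DMSO replicate 3 was left out. The collagen prolyl hydroxylases P4HA1 and P4HA2 and the mitophagy receptors BNIP3 and BNIP3L lay higher in every erianin library with log2 fold changes of 0.29 to 0.48 and adjusted p of 0.0515 to 0.131 (edgeR). ANKRD37, an ankyrin-repeat gene, was at 3.16, 1.51 and 1.09 CPM with DMSO and 4.16, 3.75 and 4.54 CPM with erianin. All its erianin libraries were higher, and its log2 fold change was 1.14 (adjusted p = 0.0688, edgeR) with all libraries and 0.87 (adjusted p = 0.00113, edgeR) without DMSO replicate 3. DDIT4, an inhibitor of mTORC1 signalling, was the effector whose groups overlapped. It was at 112, 115 and 46.6 CPM with DMSO and at 113, 113 and 121 CPM with erianin, so that DMSO replicate 3 alone lay apart. Its log2 fold change was 0.34 (adjusted p = 0.489, edgeR) with all libraries and 0.02 (adjusted p = 0.717, edgeR) without that library.

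**Figure D4:**
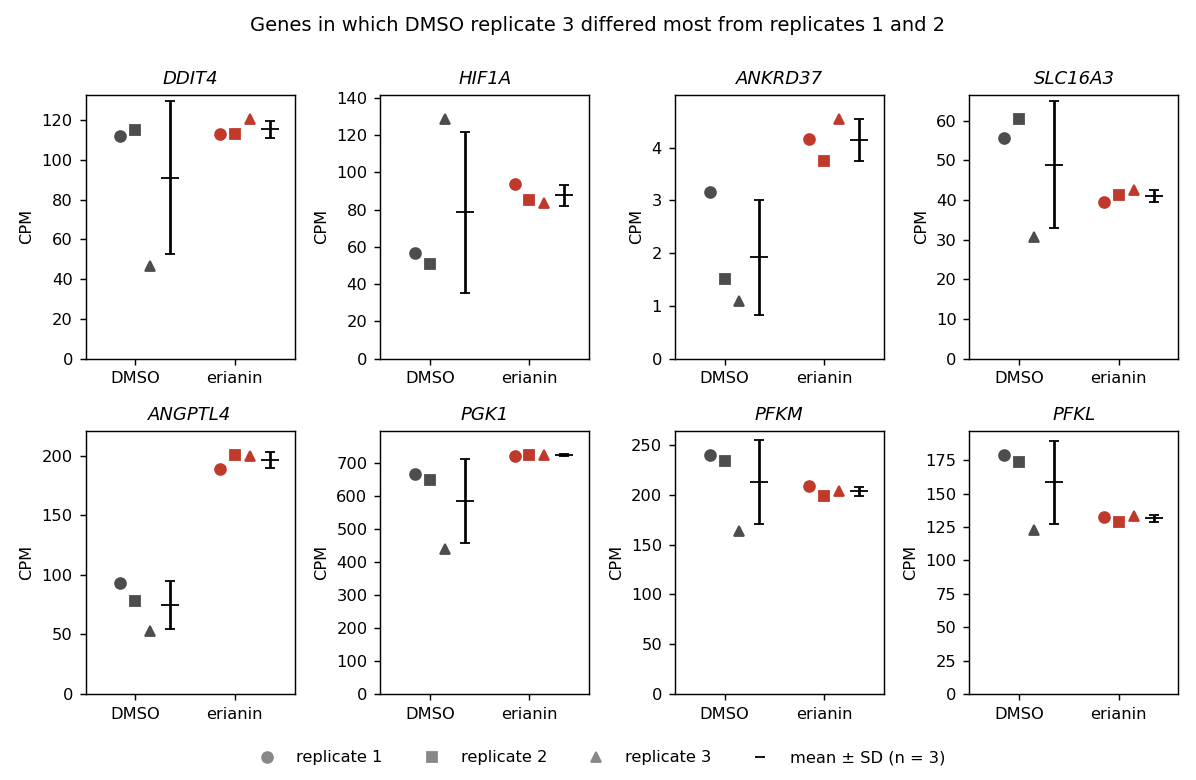
CPM by library, with mean and SD (n = 3), of the 8 genes in which DMSO replicate 3 differed most from the mean of DMSO replicates 1 and 2, among genes above 1 CPM in that mean. EGLN3, with 0 reads in DMSO replicate 3 against 4 and 3, was below that level. DMSO replicate 3 held 0.411 times the mean of DMSO replicates 1 and 2 for DDIT4, 2.39 times for HIF1A and 0.467 to 0.696 times for ANKRD37, SLC16A3, ANGPTL4, PGK1, PFKM and PFKL.

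Related genes were also compared within each library, as the log2 ratio of TPM + 1, over 13 pairs. A ratio of genes in the same library does not depend on that library's scaling, apart from the pseudocount. The two-sided exact permutation test of 3 against 3 libraries cannot go below p = 0.1, and 5 pairs reached it, each with p = 0.26 after adjustment over the 13 pairs, so no ratio passed the threshold. In these 5 the ratios of the groups did not overlap. HK2 as a share of HK1 plus HK2 TPM was 18.7%, 17.9% and 16.2% with DMSO and 25.2%, 28.6% and 27.4% with erianin. HK1 was the more abundant isozyme in every library, and the HK2 to HK1 log2 ratio was higher by 0.77 with erianin. SLC2A3 as a share of both glucose transporters was 15.6%, 15.6% and 17.1% with DMSO and 23.6%, 27.4% and 25.5% with erianin, and its log2 ratio to SLC2A1 was higher by 0.76. Every erianin library was higher in both ratios, and SLC2A1 stayed the more abundant transporter.

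The other 3 pairs without overlap differed less. The PFKM to PFKL log2 ratio was higher with erianin by 0.20, the neuronal ENO2 to the ubiquitous ENO1 by 0.17, and PFKFB4 to PFKFB3 was lower by 0.21. ENO1 was at 2053, 1947 and 1403 CPM with DMSO and at 1882, 1761 and 1830 CPM with erianin. ENO2 was at 199, 176 and 135 CPM with DMSO and at 192, 207 and 185 CPM with erianin. Both enolases were lowest in DMSO replicate 3, and their ratio in that library was near the ratio in the other DMSO libraries. The remaining 8 pairs, PFKP/PFKL, ALDOC/ALDOA, LDHB/LDHA, SLC16A3/SLC16A1, EPAS1/HIF1A, EGLN3/EGLN1, P4HA2/P4HA1 and BNIP3L/BNIP3, overlapped between the groups (exact permutation p 0.2 to 1). For EGLN3/EGLN1 the overlap depends on the pseudocount, which exceeds the EGLN3 level. As a share of both genes, EGLN3 was 0.296%, 0.168% and 0% with DMSO and 0.62%, 0.68% and 0.76% with erianin, without overlap.

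**Figure D5:**
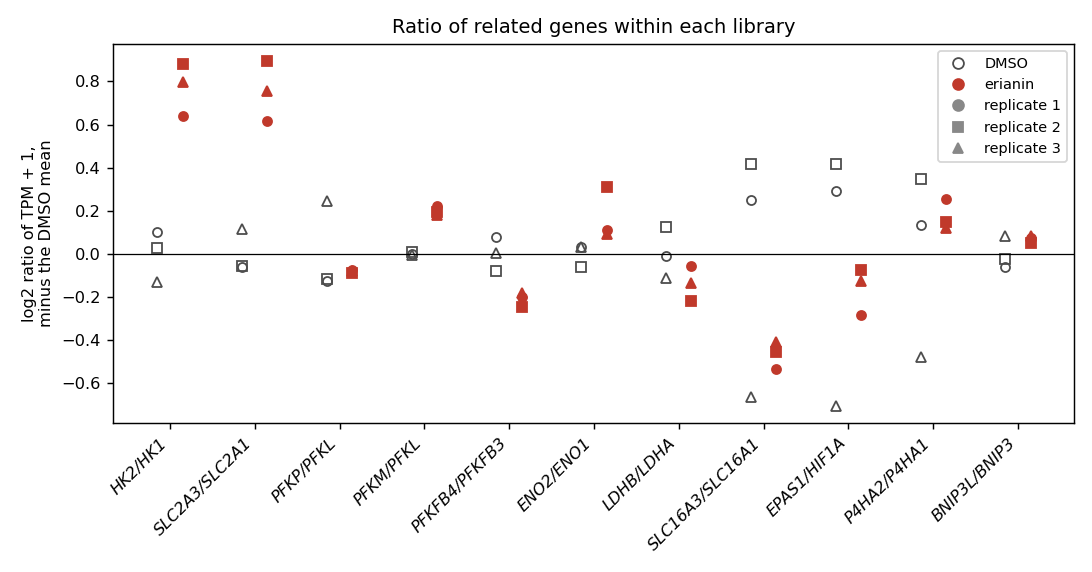
Log2 ratio of TPM + 1 of 2 related genes in each library, minus the mean ratio of the 3 DMSO libraries, with open symbols for DMSO, filled symbols for erianin and a shape for each replicate. ALDOC/ALDOA and EGLN3/EGLN1 are not drawn because ALDOC and EGLN3 were below 0.5 TPM in every library. HK2/HK1 and SLC2A3/SLC2A1 lie 0.77 and 0.76 higher with erianin on average.

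Further lists of the same biology, also chosen with earlier results of these data known, were read from the same fit. Of 31 other genes of carbon metabolism 25 were tested, with 2 called higher, 2 called lower and a median log2 fold change of 0.04, where 5.37% of all genes tested were called higher and 3.36% lower. The same shares of all genes stand beside the next lists. BPGM, which makes 2,3-bisphosphoglycerate, was at 8.75, 6.87 and 7.29 CPM with DMSO and 15.3, 12.0 and 10.7 CPM with erianin (log2 fold change 0.73, adjusted p = 0.0288, edgeR). PDK4, an inhibitory kinase of pyruvate dehydrogenase, was at 6.08, 6.10 and 8.09 CPM and then 12.2, 13.1 and 13.9 CPM with erianin (log2 fold change 0.95, adjusted p = 0.00805, edgeR). Both had all erianin libraries above all DMSO libraries. The genes that fell were PGLS, a lactonase of the pentose phosphate pathway, with a log2 fold change of -0.83 (adjusted p = 0.00404, edgeR), and PCK2, the mitochondrial PEP carboxykinase, with -0.71 (adjusted p = 0.0198, edgeR). Leaving out 1 library took the adjusted p as high as 0.116 for BPGM, 0.0573 for PDK4 and 0.0942 for PCK2, while PGLS was called each time.

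Of 13 regulators of HIF, 12 were tested and CITED2 was called (8.33%). CITED2, which competes with HIF alpha subunits for the coactivators CREBBP and EP300, was at 19.7, 19.4 and 27.9 CPM with DMSO and at 60.1, 57.7 and 59.9 CPM with erianin. Its erianin libraries were far above all DMSO libraries (log2 fold change 1.41, SE 0.15, adjusted p = 0.00273, edgeR), whichever library was left out. The median log2 fold change of the 12 was -0.003. Of 24 further hypoxia-induced genes 23 were tested, with 4 called higher (17.4%), 2 called lower and a median log2 fold change of 0.24. The 4 were PPP1R3C, a glycogen-targeting phosphatase subunit (log2 fold change 1.62, adjusted p = 0.0125, edgeR), the carbonic anhydrase CA12 (0.97, adjusted p = 0.0357), the secreted hormone STC1 (0.79, adjusted p = 0.0152) and the mitochondrial FAM162A (0.52, adjusted p = 0.0247). The glycogen synthase GYS1 (-0.55, adjusted p = 0.00410, edgeR) and ZNF395 (-0.54, adjusted p = 0.0107) were called lower. Of these 6, only GYS1 was called in all 6 fits that left out 1 library, and the highest adjusted p of the others was 0.0698 to 0.145. With an offset for GC content the FAM162A log2 fold change was 0.37 (adjusted p = 0.0249, edgeR), short of the fold-change threshold. With that offset and DMSO replicate 3 left out, GYS1 was at -0.47 (adjusted p = 3.75e-11, edgeR), also short of it. PPP1R3C, CA12, STC1 and ZNF395 stayed called in both settings.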

How the data were processed

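RNA of 6 CAL62 libraries was sequenced on BGISEQ-500. The authors deposited raw counts per gene and TPM values. The submitters' processing notes name fastp 0.23.2, STAR 2.7.10, featureCounts 2.0.1, StringTie 2.2.1 and GRCh38, without roles. The annotation and the strand setting are not given in the sources used here, so overlapping genes may carry each other's reads. The TPM columns as deposited sum to 59.1% of the nominal TPM total in DMSO replicate 3 and to 72.6% to 78.3% in the others, so log2(TPM + 1) in limma shifted the median log2 fold change of all genes to 0.175.

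Of 65807 rows, 26480 had no identifier (0.00385% to 0.00515% of counts) and were left out. Of 39168 identifiers, 38259 matched a symbol, and where several rows shared one the row with most counts was taken. Counts were analysed with edgeR 4.0.16 in R 4.3.3 (TMM, filterByExpr by group, glmQLFit, glmQLFTest, no replicate term), with Benjamini-Hochberg adjustment over 12821 genes. The study's methods name DESeq2, which was an alternative (1.42.0), as was limma 3.58.1 on TPM. On simulated counts for this comparison, with folds mixed, a coefficient of variation of 0.1 (below the 0.139 estimated here) and no library that stood apart, edgeR recovered 192 of 200 changed genes and called 4 unchanged ones of 12776 tested. Coordinates came from GENCODE release 29 and promoter sequences from RefSeq (GRCh38.p14).

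The genes and lists were chosen with earlier results of these data known. Every one of the 39 genes was named, with values per library for DEGs, for genes with an adjusted p under 0.05, for the highest mean TPM of each role and for described pairs; HIF1A, SLC16A1, SLC16A3, ANKRD37, DDIT4, ALDOC and EGLN3 were added after their values were seen. Of the other lists, called genes were named. TXNIP was not analysed here.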

Additional observations from a re-analysis of the deposited data

How the results depend on the processing

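The 8 genes called higher were the same 8 with RLE factors and when every library had to hold 10 counts. They numbered 9 with DESeq2 and upper-quartile factors, 7 with no low-count filter or a gene length offset, 8 with an offset for GC content, and 8 with that offset and DMSO replicate 3 left out, an alternative chosen after seeing the data. They numbered 13 with limma on log2(TPM + 1) or log2(TPM + 0.1), 3 at a fold-change threshold of 1, and 3 to 10 in the fits that left out 1 library. None was called lower except 1 without DMSO replicate 3 and 1 with no fold-change threshold. ADM, SLC2A3 and ANGPTL4 were called in every one of these fits and settings. Libraries with the same replicate number did not deviate together from their group means (correlations of 0.00138, 0.0253 and -0.0329). DMSO replicate 3 weighs heavily on the DMSO deviations, so a modest pairing by number may not show in these correlations. With a replicate block 7 of the 39 genes were called higher, without ALDOA, and over all genes 384 higher and 281 lower.

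Over all genes the counts of 688 higher and 431 lower became 1098 and 94 with limma on log2(TPM + 1), 1207 and 110 with log2(TPM + 0.1), and 1057 and 88 with no filter on TPM. Those called lower numbered 674 with the GC offset, 679 with the length offset, and 810 with the GC offset and DMSO replicate 3 left out. A threshold of 1 gave 324 and 28, and no threshold gave 986 lower. Leaving out 1 library gave 172 to 1485 higher and 126 to 797 lower. Of the other lists together, 7 genes were higher and 4 lower. These became 16 and 1 with log2(TPM + 1), 15 and 1 with log2(TPM + 0.1) and 15 and 1 with no filter on TPM, with 2 lower under upper-quartile factors, 2 and 0 at a threshold of 1, and 11 higher with no threshold. Leaving out 1 library gave 1 to 13 higher, and 2 to 4 lower.

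Directions turned for genes or ratios that were not called with all libraries. ENO1 was at 0.02 and fell to -0.14 without DMSO replicate 3, with or without the GC offset. TPI1 was -0.04 without that library, PFKM was at most 0.03 and HIF1A at least -0.08 without DMSO replicate 1 or 2. With the GC offset and DMSO replicate 3 left out, PGK1 was -0.06, EGLN1 -0.10, LDHB -0.01 and PDK1 -0.02. PDK1 was also -0.01 with the GC offset alone, and PGAM1 and ENO1 were -0.03 with the length offset. With limma on log2(TPM + 1), where the median of all genes was 0.175, HK1 was 0.13, PFKM 0.15 and PKM 0.03. SLC16A3 was 0.0049 with log2(TPM + 0.1), where that median was 0.197. The range of ENO1 over the fits without 1 library was -0.137 to 0.118. Over the same left-out libraries the difference in log2 ratio was -0.147 to 0.0407 for PFKP/PFKL and -0.0657 to 0.348 for P4HA2/P4HA1, both turning without DMSO replicate 3, and -0.515 to 0.0449 for EPAS1/HIF1A, turning without DMSO replicate 2. ALDOC/ALDOA was 0.25 with counts and with no pseudocount, and EGLN3/EGLN1 was 0.90 with a pseudocount of 0.1 TPM. The cause was not tested, apart from the pseudocount of 1 TPM, which exceeds the level of ALDOC and EGLN3.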
